A study of Mus musculus with 8 samples.

Results

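Antisense and processed transcripts were examined in E15.5 mouse retinas that had lost the LIM homeobox factor Lhx2 from embryonic day 11.5. The members were all genes that the count table marks as antisense or processed_transcript and that had at least 200 raw reads summed over the 8 samples. 7 genes were left out by name, of which 3 had that many reads. This gave 269 genes, 124 antisense and 145 processed_transcript, of 2236 with these biotypes and 28432 genes in all, while 1964 had fewer than 200 reads. The choice used the total over both genotypes, so a gene near the limit can pass it through the genotype in which it is higher. Just inside the limit were Atad3aos and Gm16070 with 201 reads each and A730060N03Rik with 203, and just outside it were Gm26833 and Phf2os1 with 199 each and 4932441J04Rik with 198.

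An antisense transcript is made from the opposite strand of another gene, often a protein-coding one. Many such RNAs arise from a start region shared with a coding gene and run away from it, others cross the body of the gene, and some of these RNAs act near the locus they come from. The biotype processed_transcript is a residual class that holds spliced transcripts with no accepted reading frame, among them host transcripts whose introns carry small nucleolar RNAs (snoRNAs) or microRNAs.

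The 4 CKO samples came from Lhx2flox/KO embryos and the 4 Control samples from Lhx2flox/+ embryos. The Control embryos therefore also lost 1 Lhx2 allele where Cre acted. Embryos of both genotypes were heterozygous for Hes1CreERT2, a tamoxifen-dependent Cre in the Hes1 locus that acts in Hes1-expressing retinal progenitors, and all dams received tamoxifen (0.15 to 0.2 mg per g of body weight) at E11.5. Per the study's methods, all embryos carried the Rosa26 ai14 reporter, recombined embryos were picked by fluorescence, and each sample held both retinas of 1 embryo. Poly(A) libraries that do not keep strand were sequenced, so a read from bases that lie in exons of both strands cannot be assigned to either gene, and transcripts without a poly(A) tail were not captured.

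Depth was 13143587 to 19099937 counted reads per library, and the members took 0.343% to 0.405% of them. Lhx2 itself had 2557 to 2868 normalized counts in CKO, against 3081 to 3631 in Control (log2FC -0.27 ± 0.06 (SE), edgeR adjusted p = 0.00502). This is a weak check of the labels, since the count covers the whole gene and also takes reads of a recombined allele that is still transcribed. Of 8 retinal progenitor markers 6 fell, with a summed level of 23557 to 25537 normalized counts in CKO, against 45221 to 49726 in Control. Of 5 retinal ganglion cell markers 2 rose, with sums of 24432 to 25887 in CKO, against 19589 to 23105 in Control. 1 of 4 tested pigment epithelium markers fell, and the 6 of that list summed to 75.8 to 107 in CKO, against 228 to 376 in Control, while 2 of 5 endothelial markers fell, with sums of 2622 to 3427 in CKO, against 4321 to 4585 in Control. No tested marker of lens (2), periocular mesenchyme (1), blood (4) or macrophages (5) was called. For every transcript below, fewer cells of a type and less RNA per cell cannot be told apart, and the part of these marker differences in the results was not tested.

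CKO replicate 1 stood apart from the other CKO libraries in these genes. Of the 269 members, 15 were at least 2-fold above the median of the other 3 CKO libraries in CKO replicate 1 (5.58%, against 1.38% of all 13891 genes tested), while each of the other 7 libraries had 0 to 2 such members. The upper quartile of its members lay 0.52 above that median on the log2 scale, and that of lincRNAs 0.62, against 0.11 over all genes tested. It was also the only CKO library with a high count of Xist, the RNA of the inactive X chromosome (62937 reads, against 30 to 40 in the other 3), while among Control libraries replicates 1 and 4 were high. Control replicate 3 stood apart as well, with 10 members at least 2-fold below the other Control libraries, against 0 to 5 in the other 7 libraries. The chi-square per gene was 12.8 to 15.3 between it and the other Control libraries and 4.94 to 7.58 among those, and it was 14.0 to 20.8 between CKO replicate 1 and the other CKO libraries and 3.54 to 4.92 among those. The labels do not say which libraries share a litter or a harvest day, so the part of either could not be tested. Many of the results in which either library was extreme are given with and without it.

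**Figure D1:**
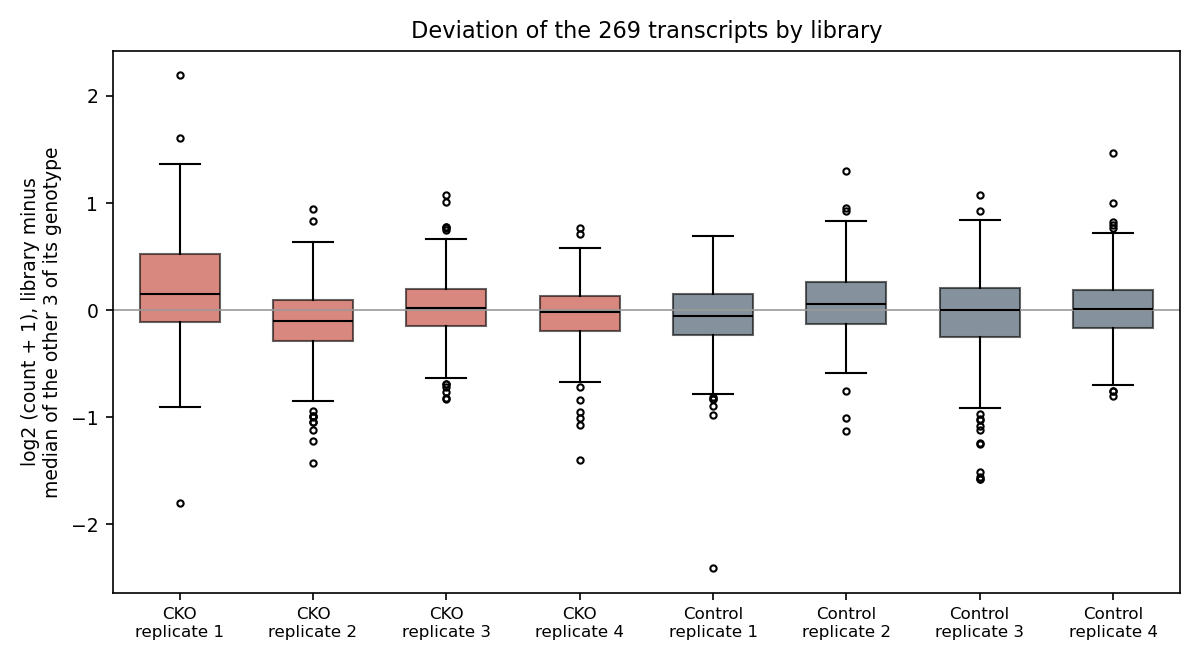
Deviation of the 269 transcripts in each library, as log2 of the normalized count plus 1, minus the median of the other 3 libraries of the same genotype. Boxes span the quartiles with the median as a line, whiskers reach 1.5 times the box height and points lie beyond; the box of CKO replicate 1 sits highest, with a median of 0.15 and an upper quartile of 0.52.

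Few of these transcripts differed between CKO and Control by the study's cutoff, an adjusted p below 0.001. The study applied it to DESeq2, while here it was applied to edgeR's quasi-likelihood test with Benjamini-Hochberg adjustment over all genes tested. All 269 members passed the filter on low counts, which asked for 20 normalized counts or more in 3 or more samples. 9 of them were called (3.35%), 5 higher and 4 lower in CKO, beside 8.61% of the 13891 genes tested (3.64% higher and 4.97% lower). At an adjusted p below 0.05 the count was 39 of 269 (14.5%), 24 higher and 15 lower, beside 33.3% of all genes tested. DESeq2 at 0.001 called 15 members, beside 17.2% of all genes tested. The samples of the 2 genotypes did not overlap for 43 members (16.0%), beside 33.8% of all genes tested. The share of members called was thus below the background by each of these readings. 11 of the 269 members differed by at least 2-fold either way, beside 3.28% of all genes tested. Of protein-coding genes 9.06% were called, and of lincRNAs 4.5% (19% at an adjusted p below 0.05).

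Most members had few reads, with a median of 499 over the 8 samples, against 4033 over all genes tested. Of protein-coding genes with at least 200 and under 1000 reads, 6.14% were called (26.3% at an adjusted p below 0.05). Among members with 200 to 499 reads 2 of 136 were called (1.47%), against 5.07% of protein-coding genes at that depth. With 500 to 999 reads 4 of 61 members were called (6.56%, against 7.34%), with 1000 to 2499 reads 1 of 39 (2.56%, against 7.09%), and with 2500 or more 2 of 33 (6.06%, against 10.5%). The members' share lay below that of protein-coding genes in each of these 4 bins of depth. Each bin held only 1 to 4 called members, so these shares are imprecise, and at 500 to 999 reads they were close. The median standard errors of log2FC in the 4 bins were 0.21, 0.17, 0.12 and 0.09 for members. For protein-coding genes they were 0.22, 0.15, 0.11 and 0.07, so members were measured less precisely from 500 reads up.

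The log2FC was above 0 for 173 of 269 members (64.3%), beside 50.8% of all genes tested, with a median of 0.11 against 0.01. Without CKO replicate 1 this was 148 of 269 (55.0%, beside 49.4% of all genes), and the median was 0.04 against -0.00. The surplus of transcripts with higher values in CKO was thus much smaller without that library. Of the 9 called members, 8 were also called without it, and 9 members were called in that fit, beside 7.4% of all genes tested. By biotype, 7 of 145 processed transcripts were called (5 higher, 2 lower) and 2 of 124 antisense genes (both lower).

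**Figure D2:**
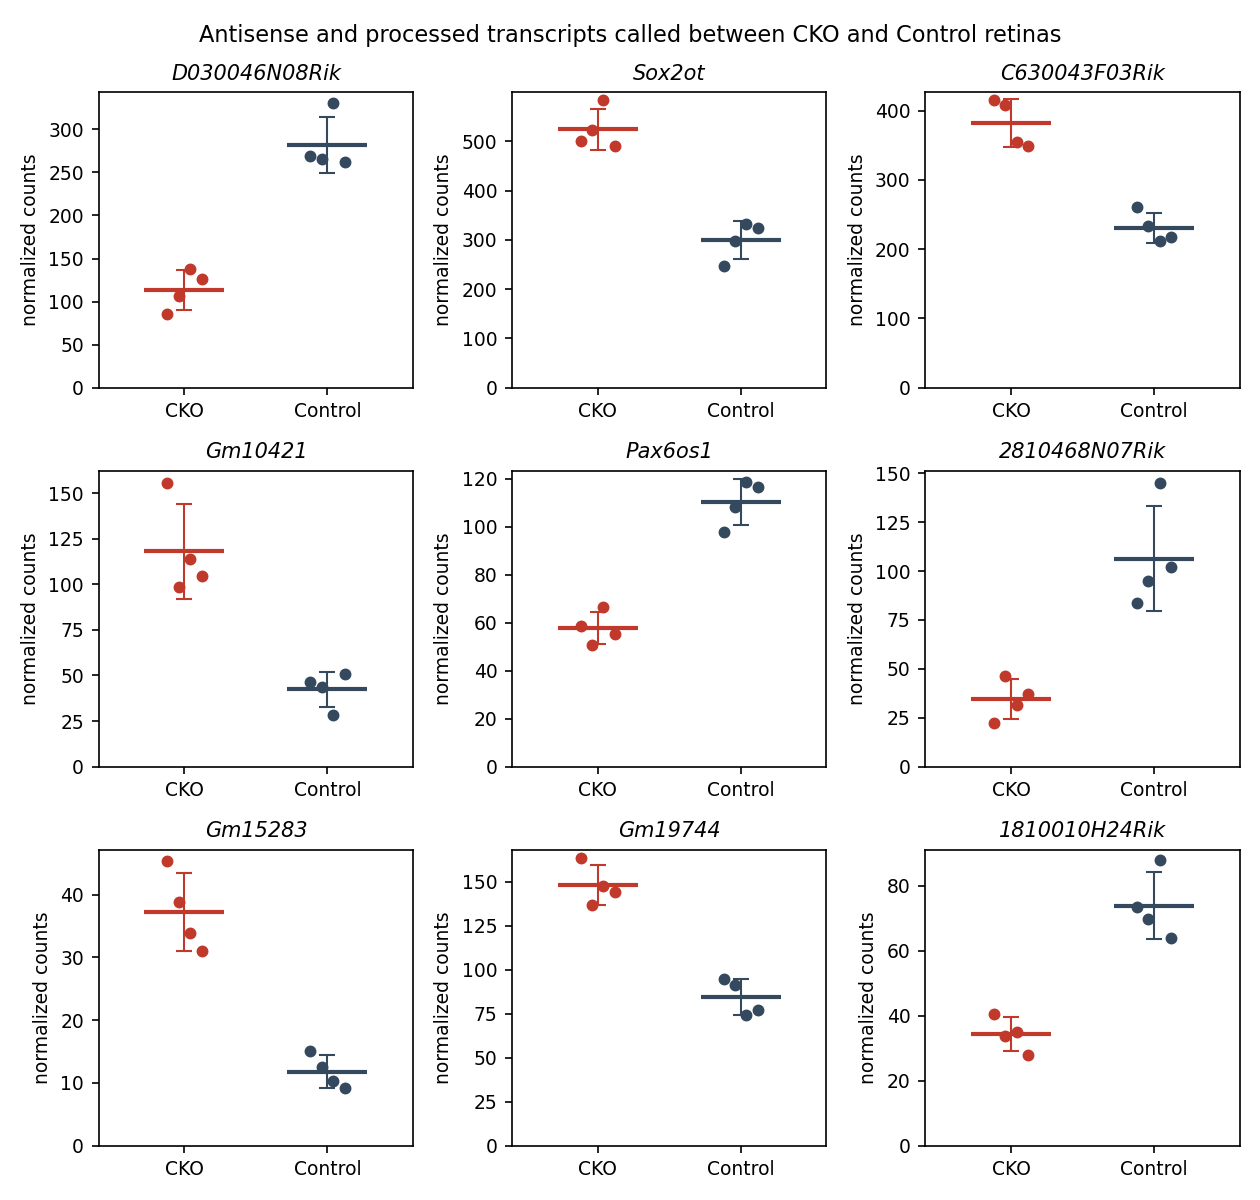
Normalized counts of the 9 called transcripts in each sample, CKO left and Control right, on axes that start at 0. Points are samples, the thick line is the mean and the bar 1 SD (n = 4); in each panel the 4 CKO samples lie all above or all below the 4 Control samples.

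In the list of transcripts beside transcription factor genes, 2 of the 5 members were called, Pax6os1 and Sox2ot, beside 8.61% of all genes tested. Members outside that list that lie at other factor genes are given further on. Pax6os1 (chr2:105536080-105670330, minus strand in GRCm38) starts inside Pax6, the paired homeobox factor of eye formation, and runs away from it, so that 1431 bases of the genes overlap but no exon base is shared. It had 58.8, 50.8, 66.7 and 55.5 normalized counts in CKO replicates 1 to 4, against 97.7, 108, 119 and 116 in Control replicates 1 to 4. All 4 CKO samples were below all 4 Control samples, and Pax6os1 fell (log2FC -0.93 ± 0.13 (SE), edgeR adjusted p = 0.000296). Pax6 had 12224, 11263, 11337 and 11770.3 normalized counts in CKO replicates 1 to 4, against 10955, 11052, 10011 and 10745 in Control replicates 1 to 4 (log2FC 0.13 ± 0.06, edgeR adjusted p = 0.122). Its CKO samples were all above its Control samples, but by a difference too small to be called.

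The log2 ratio of Pax6os1 to Pax6 was -7.68, -7.76, -7.39 and -7.70 in CKO retinas, against -6.79, -6.66, -6.39 and -6.52 in Control retinas. The genotypes did not overlap, and the difference was -1.04 ± 0.14 (SE, limma adjusted p = 0.00155). Per kilobase of exon, Pax6os1 was at 35.8 normalized counts in CKO and 68.1 in Control, while Pax6 was at 996 in CKO and 914 in Control.

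The RefSeq window around the start of Pax6os1 (GRCm38.p6, chr2:105670281-105670580, minus strand, 250 bases before to 50 after the start) is shown because it holds the letters TAATTA, the core that LIM homeodomain proteins including Lhx2 are known to bind. The capitals mark that match, at bases 143 to 148 of the window. TAATTA, which reads the same on both strands, was found in 1738 of all 32851 such windows (5.29%) and in 9 of the 189 windows of the 154 members that have one (4.76%). Of the 9 called members 4 have a window, and Pax6os1 is the 1 with a match. A match of letters is no evidence of binding.
Pax6os1: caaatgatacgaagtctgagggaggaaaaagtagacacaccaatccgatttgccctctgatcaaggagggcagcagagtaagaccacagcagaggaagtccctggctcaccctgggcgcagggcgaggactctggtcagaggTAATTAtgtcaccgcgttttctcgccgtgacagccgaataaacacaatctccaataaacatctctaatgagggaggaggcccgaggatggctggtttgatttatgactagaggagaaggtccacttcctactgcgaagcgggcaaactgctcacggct

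Sox2ot (chr3:34104270-34682619, plus strand) is a long transcript whose span contains Sox2, the SoxB factor of neural progenitors, on the same strand between its exons. It had 499.7, 524, 583 and 489.8 normalized counts in CKO replicates 1 to 4, against 247, 297, 332 and 323 in Control replicates 1 to 4, and all CKO samples were above all Control samples. Sox2ot rose (log2FC 0.81 ± 0.10 (SE), edgeR adjusted p = 0.000106). Sox2 had 1433, 1690.3, 1672 and 1649.8 normalized counts in CKO replicates 1 to 4, against 2343, 2231, 2476 and 2477 in Control replicates 1 to 4 and fell (log2FC -0.56 ± 0.06, edgeR adjusted p = 3.56e-05). The log2 ratio of Sox2ot to Sox2 was -1.52, -1.69, -1.52 and -1.75 in CKO retinas, against -3.24, -2.91, -2.89 and -2.93 in Control retinas, with no overlap. The annotation gives the 2 genes no shared exon base, and the gene opposite Sox2ot, Gm20515, had at most 2.28 normalized counts in any sample. This pair on 1 strand was not part of the ratio test.

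The other 3 members of that list were not called. Six3os1, which overlaps the start of the homeobox gene Six3 on the other strand, was the most abundant member. It had 9852, 8955, 9253 and 9317 normalized counts in CKO replicates 1 to 4, against 9700.3, 9879, 9494 and 9693 in Control replicates 1 to 4. These samples overlapped (log2FC -0.05 ± 0.05, edgeR adjusted p = 0.511). Six3 itself had 4925 to 5779.5 normalized counts in CKO, against 4925 to 5724 in Control (log2FC 0.01 ± 0.06, edgeR adjusted p = 0.916), and the ratio of the pair differed by -0.06 ± 0.10 (limma adjusted p = 0.736). Vax2os overlaps the start of the ventral retina homeobox gene Vax2 on the other strand. Vax2os had 319, 239, 194 and 265 normalized counts in CKO replicates 1 to 4, against 385, 323, 363 and 243 in Control replicates 1 to 4 (log2FC -0.36 ± 0.17, edgeR adjusted p = 0.117). Vax2 had 627 to 754 normalized counts in CKO, against 622 to 908 in Control (log2FC -0.20 ± 0.11, edgeR adjusted p = 0.189). Without CKO replicate 1 the value of Vax2os was -0.50 (edgeR adjusted p = 0.0324). Zeb2os, antisense to the zinc finger gene Zeb2 with 653 shared exon bases, had 68.3 to 108 normalized counts in CKO, against 77.0 to 91.6 in Control (log2FC 0.03 ± 0.15, edgeR adjusted p = 0.895). In the whole list of transcripts beside transcription factor genes, 8 of 17 in the table passed the filter. Of these 1 rose and 1 fell, both of them members, beside 8.61% of all genes tested that were called. The median log2FC was -0.01, against 0.01 over all genes tested.

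**Figure D3:**
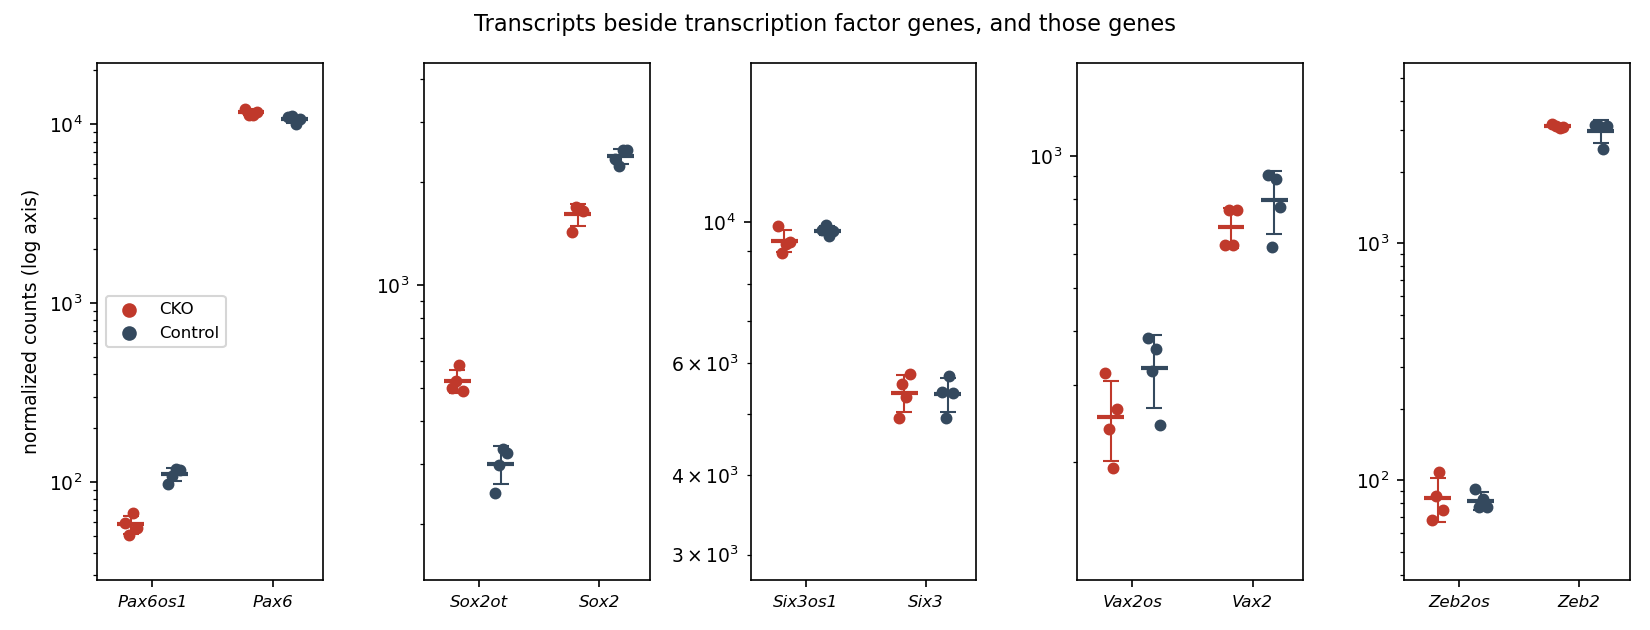
Normalized counts, on a log axis that differs between panels, of 5 transcripts and of the transcription factor gene beside each, CKO left of Control within each pair. Points are samples, lines are means and bars 1 SD (n = 4); Pax6os1 is lower and Sox2ot higher in CKO, with Pax6 at 10011 to 12224 normalized counts throughout and Sox2 lower in CKO.

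Most members could be set beside a gene of the opposite strand. GENCODE M21, which annotates GRCm38, holds 264 of the members. Of these, 114 start within 2 kb of a gene on the other strand and 118 others overlap one but start further from it, which leaves 32 with neither. For each member 1 partner was taken, a protein-coding gene where there was one, then the gene with the most shared exon bases. 167 members share exon bases with the other strand, with a median of 5.58% of a member's exon bases over the 264, and 15 share more than 50%. Per kilobase of exon, the median member was at 20.6% of its partner's level in CKO and at 19.5% in Control, and 54 of 232 members in CKO and 55 in Control were above their partner.

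Over the 111 tested pairs with starts within 2 kb, the log2FC of member and partner had a Pearson r of 0.55 and a Spearman rho of 0.40, and 67 pairs had the same sign. Over the 95 tested pairs that overlap with starts further apart, r was 0.40 and rho 0.35, and 62 had the same sign. Among pairs without a shared exon base r was 0.28 (37 pairs) with starts within 2 kb and 0.42 (17 pairs) for the others. These are descriptions over gene pairs measured in the same 8 libraries. Reads from shared bases could tie some of the pairs, depending on how such reads were counted, which was not found.

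**Figure D4:**
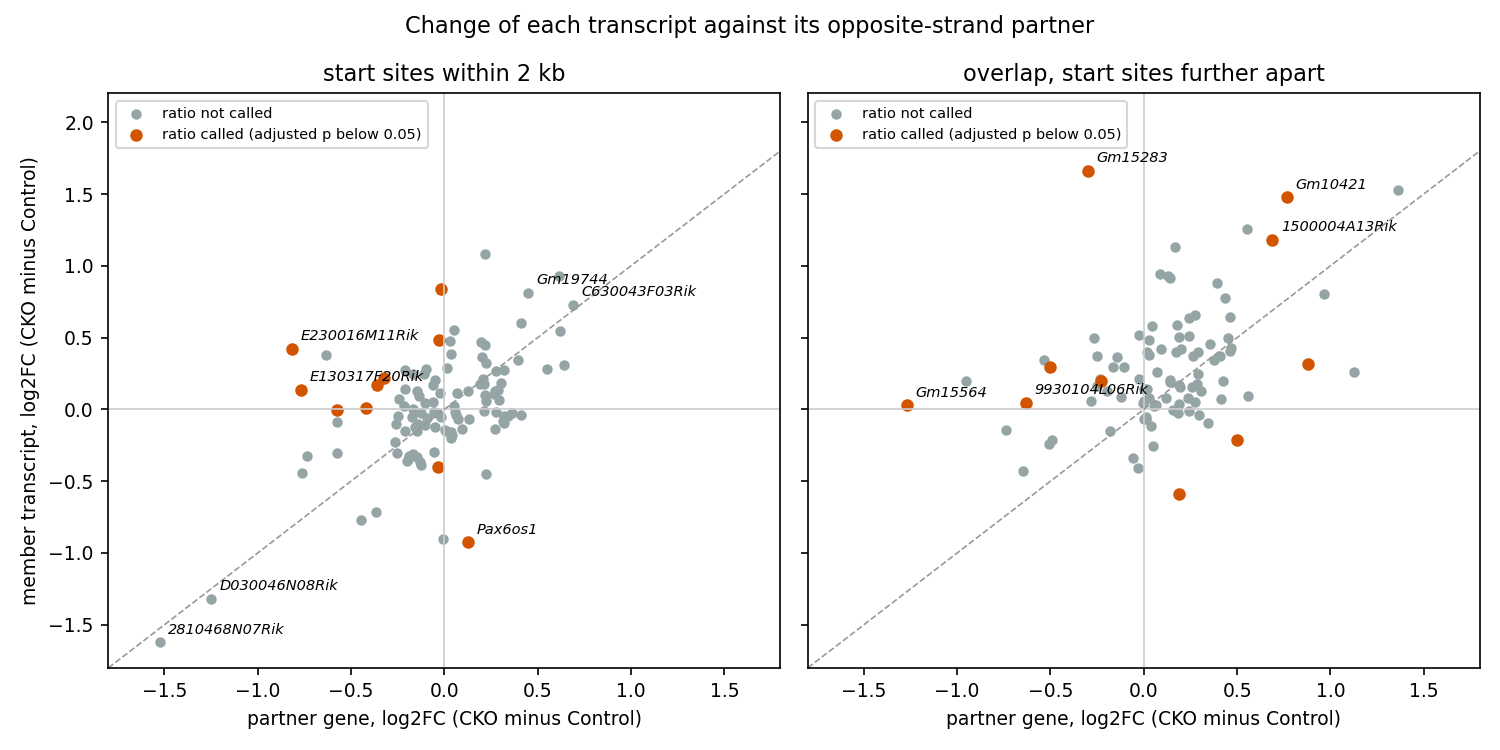
log2FC (CKO minus Control) of each member against that of its partner, for 111 pairs with starts within 2 kb (left) and 95 that overlap with starts further apart (right). Each point is a pair, the dashed line marks equal change and orange points are the 20 pairs whose ratio was called; D030046N08Rik and 2810468N07Rik lie near the dashed line and Pax6os1 and Gm15283 far from it.

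Of the 14 called partners that start within 2 kb of a member, 3 had a called member beside them, while 3.35% of all members were called. All 3 members moved the same way as the partner. C630043F03Rik (chr4:72201348-72215352, plus strand) starts 429 bases from Tle1, a Groucho corepressor gene, and the 2 genes do not overlap. It had 415, 407, 354 and 349 normalized counts in CKO replicates 1 to 4, against 261, 233, 211 and 218 in Control replicates 1 to 4. All CKO samples were above all Control samples, and it rose (log2FC 0.73 ± 0.10 (SE), edgeR adjusted p = 0.000181). Tle1 had 5152, 4799, 4440.4 and 4942 normalized counts in CKO replicates 1 to 4, against 3177, 2882, 3080.2 and 2869 in Control replicates 1 to 4 and also rose (log2FC 0.69 ± 0.06, edgeR adjusted p = 1.04e-05). The ratio of the pair differed by 0.04 ± 0.10 (limma adjusted p = 0.830), so no difference in their change was detected.

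The RefSeq windows of the 2 starts are shown because they cover the same DNA on opposite strands (GRCm38.p6, chr4:72200994-72201293, plus strand for C630043F03Rik and chr4:72200844-72201143, minus strand for Tle1). The capitals mark the 150 bases that both windows hold. The windows have 41 and 40 CG dinucleotides, against a median of 7 over all 32851 windows and 16 over those of members.
C630043F03Rik: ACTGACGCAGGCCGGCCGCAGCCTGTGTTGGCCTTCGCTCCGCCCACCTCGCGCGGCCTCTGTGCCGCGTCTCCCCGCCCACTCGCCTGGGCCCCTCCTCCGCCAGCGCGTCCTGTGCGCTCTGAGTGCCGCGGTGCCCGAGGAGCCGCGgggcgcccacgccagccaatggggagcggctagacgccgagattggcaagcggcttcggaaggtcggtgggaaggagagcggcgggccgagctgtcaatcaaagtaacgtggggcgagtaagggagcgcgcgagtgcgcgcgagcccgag
Tle1: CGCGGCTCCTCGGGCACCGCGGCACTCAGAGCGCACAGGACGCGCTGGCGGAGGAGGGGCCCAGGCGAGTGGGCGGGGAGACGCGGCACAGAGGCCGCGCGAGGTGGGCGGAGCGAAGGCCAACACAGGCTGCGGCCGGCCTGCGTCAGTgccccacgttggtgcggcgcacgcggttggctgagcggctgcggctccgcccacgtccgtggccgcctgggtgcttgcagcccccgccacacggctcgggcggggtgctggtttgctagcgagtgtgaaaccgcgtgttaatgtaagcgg

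2810468N07Rik starts 328 bases inside Sox8, a SoxE factor gene, and shares 329 exon bases with it. It had 22.2, 46.5, 31.7 and 37.3 normalized counts in CKO replicates 1 to 4, against 83.6, 94.8, 145 and 102 in Control replicates 1 to 4, with all CKO samples below all Control samples. It fell (log2FC -1.62 ± 0.23 (SE), edgeR adjusted p = 0.000332), and so did Sox8, which had 259.8, 345, 306 and 261 normalized counts in CKO replicates 1 to 4, against 630.3, 866, 1103 and 783 in Control replicates 1 to 4 (log2FC -1.52 ± 0.15, edgeR adjusted p = 3.08e-05). Both genes had their highest value in Control replicate 3, and the ratio of the pair differed by -0.11 ± 0.18 (limma adjusted p = 0.726). How far reads from the shared bases tie both counts is not known. The log2FC of 2810468N07Rik was -1.44 without Control replicate 3 (edgeR adjusted p = 0.000547). Without CKO replicate 1, its lowest sample, it was -1.45 (edgeR adjusted p = 0.000638).

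D030046N08Rik overlaps Fam69c on the other strand by 1540 bases, and 1338 of its 1570 exon bases are exons of Fam69c too. It had 85.0, 106, 138 and 126 normalized counts in CKO replicates 1 to 4, against 269, 266, 331 and 262 in Control replicates 1 to 4, with no overlap between the genotypes. It fell (log2FC -1.32 ± 0.14 (SE), edgeR adjusted p = 4.52e-05), beside Fam69c with 237 to 287 normalized counts in CKO, against 571 to 633 in Control (log2FC -1.25 ± 0.08, edgeR adjusted p = 9.42e-07). How reads from the shared bases were counted was not found. With that much shared sequence and no strand, it is not known how far the counts of D030046N08Rik and Fam69c are independent.

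At the other 11 called partners with a start within 2 kb the member itself was not called (these 11 and the pairs below were taken up after their values were seen). In 5 of them partner and member both had lower means in CKO, and in 3 of these the member's CKO samples were all below its Control samples. The genotypes did not overlap, in either direction, for 16.0% of all members and 33.8% of all genes tested. Dll4, a Notch ligand, had 565 to 716 normalized counts in CKO, against 1084 to 1202 in Control (log2FC -0.76 ± 0.07, edgeR adjusted p = 2.16e-05), and Gm14207 beside it 81.8 to 105 normalized counts in CKO, against 109 to 146 in Control (log2FC -0.44 ± 0.13, edgeR adjusted p = 0.0198). Ccnyl1, a cyclin Y-like gene, had log2FC -0.37 and 2810408I11Rik -0.71 (edgeR adjusted p = 0.0127). Tmtc2 had -0.58 and Gm15663 -0.30 (edgeR adjusted p = 0.0487), and for both members the samples of the genotypes did not overlap. Hes5, a Notch target, had -0.73 and Gm20421, which shares 64.4% of its exon bases with the other strand, -0.32 (edgeR adjusted p = 0.256), with overlapping samples. Ctdspl had -0.58 and Gm2415 -0.09, also with overlapping samples of the member, and the sign of Gm2415 turned without Control replicate 3 (0.07).

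4 of the 11 partners rose, beside members with values in both directions. Zeb1 had log2FC 0.41 and Gm10125 0.60 (edgeR adjusted p = 0.0164), and Pcdh10, a protocadherin gene, had 0.64 and 2610316D01Rik 0.31 (edgeR adjusted p = 0.126). For both members the CKO samples were all above the Control samples, beside 16.0% of all members without overlap in either direction. Kdm2b, a histone demethylase gene, had 0.27 and A930024E05Rik -0.14, and Zbtb18, a zinc finger repressor gene, had 0.28 and Gm26801 -0.02, both with overlapping samples of the member. The value of Gm26801 lay on either side of 0 with the fit used. The other 2 of the 11, Gadd45a and Ptbp1, are described next.

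The ratio of member to partner differed between CKO and Control in 20 of 206 tested pairs (9.71%, limma with Benjamini-Hochberg adjusted p below 0.05 over 2445 opposite-strand pairs), beside 18.7% of all these pairs. In 15 of the 20 the member was relatively higher in CKO and in 5 relatively lower. Over all 269 members the log2FC was above 0 for 64.3%, and for 55.0% without CKO replicate 1. The split of the ratios without that library is not given here. In 6 of the 20 the partner was a called gene, in 3 the member was, and in 12 neither was. Of all genes tested 8.61% were called, and of all members 3.35%. A ratio that differs favors a call of either gene, so these counts are no separate result. 7 pairs had an adjusted p below 0.01 and are described here, of which Pax6os1 with Pax6 is given above.

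In 4 of these 7 the partner fell while the member was not called. Ptbp1, the polypyrimidine tract-binding repressor of neuronal splicing, had 2668, 2999, 3185 and 3191 normalized counts in CKO replicates 1 to 4, against 5664, 4963, 4929.8 and 4934 in Control replicates 1 to 4 (log2FC -0.77 ± 0.07 (SE), edgeR adjusted p = 1.21e-05). E130317F20Rik, which starts 544 bases inside it with 295 shared exon bases, had 191, 191, 193 and 222 normalized counts in CKO replicates 1 to 4, against 174, 169.7, 188 and 192 in Control replicates 1 to 4 (log2FC 0.14 ± 0.09, edgeR adjusted p = 0.254). The Ptbp1 samples of the genotypes were far apart and those of E130317F20Rik overlapped. Their log2 ratio was -3.79, -3.96, -4.04 and -3.84 in CKO retinas, against -5.02, -4.86, -4.70 and -4.67 in Control retinas, a difference of 0.90 ± 0.11 (SE, limma adjusted p = 0.00130).

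Gadd45a, a growth arrest and stress response gene, had 1151, 1143, 1137 and 1208 normalized counts in CKO replicates 1 to 4, against 2108, 2102, 1925 and 2038 in Control replicates 1 to 4 (log2FC -0.82 ± 0.05 (SE), edgeR adjusted p = 9.42e-07). E230016M11Rik, which starts 858 bases inside it with 337 shared exon bases, had 46.9, 34.5, 31.7 and 33.1 normalized counts in CKO replicates 1 to 4, against 31.2, 31.2, 25.1 and 22.3 in Control replicates 1 to 4 (log2FC 0.42 ± 0.21, edgeR adjusted p = 0.147). Gadd45a was lower in every CKO sample, while E230016M11Rik was slightly higher in every CKO sample without being called. The ratio differed by 1.21 ± 0.19 (SE, limma adjusted p = 0.00305).

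Cdca8, which encodes borealin of the chromosomal passenger complex that acts in mitosis, had 1378, 1429, 1422 and 1468 normalized counts in CKO replicates 1 to 4, against 2182, 2157, 2312 and 2177 in Control replicates 1 to 4 (log2FC -0.63 ± 0.04 (SE), edgeR adjusted p = 2.19e-06). The member 9930104L06Rik had 308, 345, 361 and 322 normalized counts in CKO replicates 1 to 4, against 282, 322, 331 and 360.5 in Control replicates 1 to 4 (log2FC 0.05 ± 0.09, edgeR adjusted p = 0.722), and its samples overlapped. The ratio differed by 0.68 ± 0.10 (SE, limma adjusted p = 0.00244). The M21 spans overlap by 2264 bases, 232 of them in exons of both, and GENCODE M21 and RefSeq both list 9930104L06Rik as protein-coding.

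The RefSeq windows of 9930104L06Rik (chr4:124936798-124937097, plus strand) and Cdca8 (chr4:124936868-124937167, minus strand, both GRCm38.p6) are shown to set beside those of C630043F03Rik and Tle1. They share 230 bases, in capitals. In this pair 1 gene fell and the other was not called. Whether a shared start region ties the change of 2 genes was not tested. The windows hold 16 and 21 CG dinucleotides. In all, 35 members had a window that shares 62 to 297 bases with that of the partner. In 21 of these pairs the 2 log2FC had the same sign. 5 partners and 1 member were called, beside 8.61% of all genes tested and 3.35% of all members. 2 ratios were called, beside 9.71% of all tested member pairs.
9930104L06Rik: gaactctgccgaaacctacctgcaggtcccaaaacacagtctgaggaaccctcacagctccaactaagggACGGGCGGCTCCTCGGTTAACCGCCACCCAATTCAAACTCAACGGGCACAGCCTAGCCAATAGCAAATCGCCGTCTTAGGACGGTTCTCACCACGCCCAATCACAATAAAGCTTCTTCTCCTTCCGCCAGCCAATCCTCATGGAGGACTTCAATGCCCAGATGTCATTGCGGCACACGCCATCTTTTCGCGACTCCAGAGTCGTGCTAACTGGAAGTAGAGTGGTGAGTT
Cdca8: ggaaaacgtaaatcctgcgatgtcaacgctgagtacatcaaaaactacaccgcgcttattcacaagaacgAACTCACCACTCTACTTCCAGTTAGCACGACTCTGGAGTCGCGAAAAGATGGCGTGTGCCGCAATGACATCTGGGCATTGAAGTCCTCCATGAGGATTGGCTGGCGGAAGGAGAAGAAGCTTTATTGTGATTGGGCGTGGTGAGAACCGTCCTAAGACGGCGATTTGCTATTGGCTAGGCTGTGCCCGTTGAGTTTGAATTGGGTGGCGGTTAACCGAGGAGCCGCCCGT

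Parp9, a gene of the poly(ADP-ribose) polymerase family, had 23.0, 30.2, 30.6 and 29.9 normalized counts in CKO replicates 1 to 4, against 64.4, 78.1, 61.7 and 68.9 in Control replicates 1 to 4 and fell (log2FC -1.27 ± 0.16 (SE), edgeR adjusted p = 0.000168). Gm15564, which overlaps it by 5854 bases without a shared exon base, had 433, 445, 697 and 602 normalized counts in CKO replicates 1 to 4, against 426, 757, 234 and 702 in Control replicates 1 to 4 (log2FC 0.03 ± 0.30, edgeR adjusted p = 0.952). Gm15564 varied by more than 2-fold within the Control group, with Control replicate 3 lowest, so its own change could not be resolved. The ratio differed by 1.39 ± 0.29 (SE, limma adjusted p = 0.00956).

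2 members that cross another gene were relatively higher in CKO with a call or a large difference of their own. Gm15283 (chr12:73843039-73949814, minus strand) crosses 46156 bases of Hif1a, the hypoxia-induced factor subunit, with 330 shared exon bases. It had 45.3, 38.8, 33.9 and 30.9 normalized counts in CKO replicates 1 to 4, against 15.1, 12.5, 10.3 and 9.11 in Control replicates 1 to 4. It rose (log2FC 1.66 ± 0.24 (SE), edgeR adjusted p = 0.000341), although it had only 207 reads in all, near the limit of 200. Every Control sample of Gm15283 was under the filter's 20 normalized counts, so it passed through its CKO samples alone. A gene this low in Control could be tested only if it was higher in CKO. Hif1a had 5176, 6199, 6265 and 5786 normalized counts in CKO replicates 1 to 4, against 7054, 7489.7, 6613 and 7661 in Control replicates 1 to 4 (log2FC -0.30 ± 0.07, edgeR adjusted p = 0.00693), with all CKO samples below all Control samples. The ratio differed by 1.89 ± 0.24 (SE, limma adjusted p = 0.00135).

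1500004A13Rik, with 6354 reads 1 of the 10 most abundant members, had 829, 1480.1, 1417 and 538 normalized counts in CKO replicates 1 to 4, against 326, 852, 346 and 352 in Control replicates 1 to 4 (log2FC 1.18 ± 0.36 (SE), edgeR adjusted p = 0.0250). CKO replicates 2 and 3 were far above CKO replicates 1 and 4, Control replicate 2 was far above the other Control samples, and the genotypes overlapped. 5830417I10Rik, a pseudogene on the other strand that shares 2897 exon bases with it, had 107, 183, 175 and 56.6 normalized counts in CKO replicates 1 to 4, against 58.4, 141, 58.2 and 65.8 in Control replicates 1 to 4 (log2FC 0.69 ± 0.37, edgeR adjusted p = 0.172), with its highest values in the same 3 samples. Their log2 ratio was 2.94, 3.01, 3.01 and 3.23 in CKO retinas, against 2.46, 2.59, 2.55 and 2.40 in Control retinas, a difference of 0.55 ± 0.09 (SE, limma adjusted p = 0.00331), with no overlap. Without Control replicate 3 the log2FC of 1500004A13Rik was 1.07 (edgeR adjusted p = 0.0582). With 2897 shared exon bases and no strand, it is not known how far the counts of this pair are independent.

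**Figure D5:**
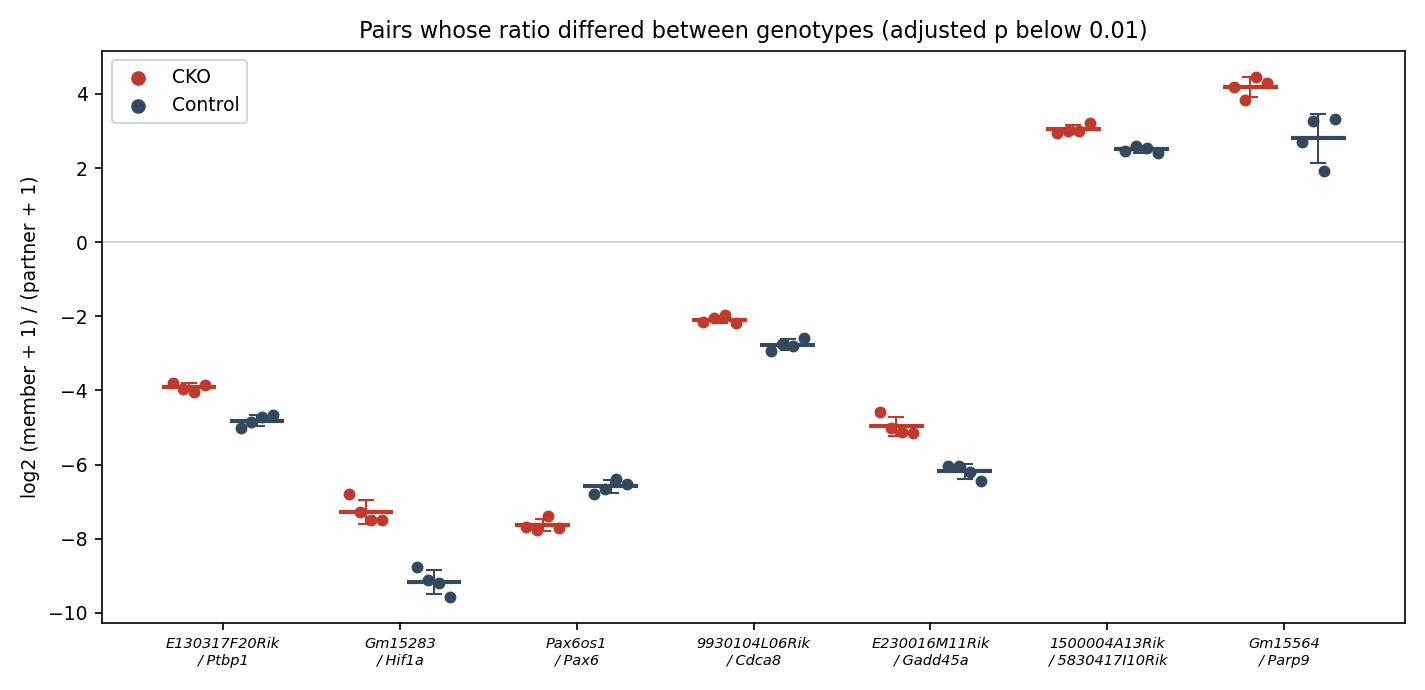
log2 ratio of member to partner, each as normalized counts plus 1, for the 7 pairs with an adjusted p below 0.01, CKO left of Control. Points are samples, lines are means and bars 1 SD (n = 4); the CKO samples are below the Control samples for Pax6os1 and above them for the other 6 pairs.

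2 more called members lie across from larger neuronal or adhesion genes. Gm10421 (chr12:117144530-117151651, minus strand) lies with its whole span of 7122 bases inside Ptprn2, a receptor-type phosphatase gene of secretory granules, and shares no exon base with it. It had 156, 98.2, 114 and 105 normalized counts in CKO replicates 1 to 4, against 46.3, 43.7, 28.5 and 50.6 in Control replicates 1 to 4 and rose (log2FC 1.48 ± 0.20 (SE), edgeR adjusted p = 0.000263), as did Ptprn2 with 804 to 940.1 normalized counts in CKO, against 504 to 576 in Control (log2FC 0.77 ± 0.07, edgeR adjusted p = 1.82e-05). Intronic reads of Ptprn2 that fall on exons of Gm10421 could have been counted with it, which was not tested. The ratio differed by 0.70 ± 0.21 (limma adjusted p = 0.0478), and its adjusted p was 0.0455 to 0.106 when any 1 sample was left out.

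Gm19744 (chr8:48843665-48869901, plus strand) starts 286 bases inside Tenm3, a teneurin of synaptic matching in the retina, with 114 shared exon bases. It had 164, 137, 148 and 144 normalized counts in CKO replicates 1 to 4, against 94.6, 91.6, 74.2 and 77.0 in Control replicates 1 to 4. All CKO samples were above all Control samples and Gm19744 rose (log2FC 0.81 ± 0.12 (SE), edgeR adjusted p = 0.000398), but without CKO replicate 1 its value was 0.75 (edgeR adjusted p = 0.00107), just outside the cutoff. Tenm3 had 4161, 4485, 4486 and 5025 normalized counts in CKO replicates 1 to 4, against 3580.5, 3567, 2538 and 3607 in Control replicates 1 to 4 (log2FC 0.45 ± 0.10, edgeR adjusted p = 0.00668), with Control replicate 3 far below the other Control samples. The ratio of the pair differed by 0.35 ± 0.14 (limma adjusted p = 0.118).

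1810010H24Rik (chr11:107025681-107030443, plus strand) had no gene on the other strand by the rule used. It had 40.5, 33.6, 35.0 and 27.7 normalized counts in CKO replicates 1 to 4, against 73.5, 69.8, 87.9 and 63.8 in Control replicates 1 to 4, with no overlap, and fell (log2FC -1.09 ± 0.17 (SE), edgeR adjusted p = 0.000601). The count table marks it antisense, while GENCODE M21 and RefSeq list it as protein-coding. 13 members are protein-coding in RefSeq, of 195 found there, and 7 in GENCODE M21, so the biotype of the table is not a firm statement that a member is noncoding.

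Of the 9 called members, D030046N08Rik and Sox2ot were called whichever sample was left out. Of the 9, 3 stayed called without Control replicate 2, 3 without Control replicate 4, 5 without CKO replicate 2 and 5 without CKO replicate 4, and between 6 and 8 without each of the other 4 samples. Without Control replicate 3, Gm15283 (1.61, edgeR adjusted p = 0.001001) and 1810010H24Rik (-0.998, edgeR adjusted p = 0.00145) were just outside the cutoff. The log2FC of the 9 kept their sign in all 16 alternative fits, and the largest adjusted p that any of them reached there was 0.00286. All 9 were among the 15 that DESeq2 called.

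6 further members had an adjusted p below 0.05 and a change of at least 2-fold, among them 1500004A13Rik above. 2610203C20Rik (chr9:41327077-41716994, plus strand) is named Mir100hg in RefSeq, and its span holds the microRNA genes Mir100, Mirlet7a-2 and Mir125b-1. It had 850.0, 413, 490.1 and 541 normalized counts in CKO replicates 1 to 4, against 248, 294, 305 and 293 in Control replicates 1 to 4. All CKO samples were above all Control samples, with CKO replicate 1 highest (log2FC 1.02 ± 0.20 (SE), edgeR adjusted p = 0.00219). Without that library the change was smaller and passed the cutoff, at 0.75 (edgeR adjusted p = 0.000452). The microRNAs themselves were not measured.

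5 mature microRNAs of that span are shown because their precursors lie in the transcript (RefSeq, GRCm38.p6, chr9:41531437-41582001, plus strand). The capitals mark bases 2 to 8, the seed. They are not the full set, since of Mirlet7a-2 only the 3p arm is printed. No 2 of the 5 printed sequences share a seed.
mmu-miR-100-5p: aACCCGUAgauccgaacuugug
mmu-miR-100-3p: aCAAGCUUgugucuauagguau
mmu-let-7a-2-3p: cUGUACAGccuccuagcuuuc
mmu-miR-125b-5p: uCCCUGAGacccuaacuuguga
mmu-miR-125b-1-3p: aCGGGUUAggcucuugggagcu

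8 members span a microRNA gene on the same strand, and their log2FC was between -0.25 and 1.02 with a median of 0.31. Without CKO replicate 1 it was between -0.54 and 0.83 with a median of 0.19 (group values without this library were added after the data were seen). Sox2ot was the 1 called of these 8, beside 8.61% of all genes tested. Dleu2, which carries Mir15a and Mir16-1, had 367, 197, 185 and 223 normalized counts in CKO replicates 1 to 4, against 308, 296, 249 and 314 in Control replicates 1 to 4 (log2FC -0.25 ± 0.20, edgeR adjusted p = 0.353). The other 3 CKO samples were below every Control sample, and without CKO replicate 1 its value was -0.54 (edgeR adjusted p = 0.00374). Mir22hg, the host of Mir22, had 245 reads in all and overlapping samples (log2FC 0.20 ± 0.24, edgeR adjusted p = 0.560). In the list of microRNA host transcripts, 8 passed the filter. 1 of them, which is not a member, rose, beside 8.61% of all genes tested that were called. 4 had an adjusted p below 0.05, beside 33.3% of all genes tested. The median log2FC was 0.33, and 0.20 without CKO replicate 1.

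Srrm4os, antisense to Srrm4, a regulator of neuronal microexons, had 279.6, 77.5, 169.6 and 119.5 normalized counts in CKO replicates 1 to 4, against 68.5, 87.5, 28.5 and 86.1 in Control replicates 1 to 4 (log2FC 1.26 ± 0.39 (SE), edgeR adjusted p = 0.0290). CKO replicate 1 was highest by far, the genotypes overlapped, and without it the value was 0.82 (edgeR adjusted p = 0.0858). Srrm4 itself rose (log2FC 0.56 ± 0.07, edgeR adjusted p = 0.000107). Gm15893, inside the RNA-binding protein gene Msi2, had 89.8, 24.1, 66.7 and 41.6 normalized counts in CKO replicates 1 to 4, against 20.1, 33.3, 14.8 and 33.4 in Control replicates 1 to 4 (log2FC 1.13 ± 0.40, edgeR adjusted p = 0.0473), and 0.75 (edgeR adjusted p = 0.149) without CKO replicate 1. Msi2 was at log2FC 0.16 ± 0.08 (edgeR adjusted p = 0.147). Control replicate 3 was the lowest Control sample for both members, and without it Srrm4os was at 1.02 (edgeR adjusted p = 0.0587) and Gm15893 at 0.95 (edgeR adjusted p = 0.104).

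4930426D05Rik had 28.6, 46.5, 56.9 and 54.4 normalized counts in CKO replicates 1 to 4, against 22.2, 17.7, 6.85 and 16.2 in Control replicates 1 to 4 (log2FC 1.53 ± 0.32 (SE), edgeR adjusted p = 0.00342), beside Klhl14, with which it shares 610 exon bases, at 27.0 to 62.0 normalized counts in CKO, against 17.1 to 21.3 in Control (log2FC 1.36 ± 0.27, edgeR adjusted p = 0.00259). How far the counts of 4930426D05Rik and Klhl14 are independent is not known. RefSeq lists 4930426D05Rik as protein-coding. Gm12406, which starts 946 bases inside Enho, the gene of the secreted peptide adropin, had 60.4, 48.2, 32.8 and 32.0 normalized counts in CKO replicates 1 to 4, against 19.1, 26.0, 21.7 and 16.2 in Control replicates 1 to 4 (log2FC 1.08 ± 0.26, edgeR adjusted p = 0.00835). The CKO samples of both members were all above their Control samples. Neither member had 3 Control samples at the filter's 20 normalized counts or more, so both needed their CKO samples to pass it. Enho had 444 to 540.4 normalized counts in CKO, against 356 to 559 in Control (log2FC 0.22 ± 0.12, edgeR adjusted p = 0.194).

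7 members are snoRNA host transcripts of the list, none was called, and their log2FC ranged from -0.27 to 0.37 with a median of 0.05. Without CKO replicate 1 the median turned to -0.06, with a range of -0.32 to 0.13. Gas5, whose introns hold box C/D snoRNAs, had 2358, 1819, 1867 and 1858 normalized counts in CKO replicates 1 to 4, against 2003, 2096, 2069.9 and 2028 in Control replicates 1 to 4 (log2FC -0.05 ± 0.08 (SE), edgeR adjusted p = 0.689). CKO replicate 1 was far above the other CKO samples, which were all below the Control samples, and without it the value was -0.15 (edgeR adjusted p = 0.0253). Zbtb37, which starts 427 bases inside Gas5 on the other strand, had 1127 to 1358 normalized counts in CKO, against 662 to 1095 in Control (log2FC 0.34 ± 0.13, edgeR adjusted p = 0.0718). Snhg14, the host of the Prader-Willi snoRNA clusters, overlaps the end of Ube3a on the other strand in the annotation used. Snhg14 had 1883, 1073, 1066 and 1188 normalized counts in CKO replicates 1 to 4, against 929, 1122, 901 and 1093 in Control replicates 1 to 4 (log2FC 0.37 ± 0.17, edgeR adjusted p = 0.117). Again CKO replicate 1 was the highest, and without it the value was 0.13 (edgeR adjusted p = 0.299). Ube3a had 2901 to 3219 normalized counts in CKO, against 1965 to 2789.8 in Control (log2FC 0.26 ± 0.09, edgeR adjusted p = 0.0531).

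The other snoRNA hosts were Snhg8 with log2FC -0.27 ± 0.11, Snhg17 with 0.12 ± 0.15, Snhg5 with 0.06 ± 0.10, Snhg4 with 0.05 ± 0.17 and Snhg3 with -0.05 ± 0.17, where edgeR adjusted p-values were between 0.0819 and 0.860. Without CKO replicate 1 the values of Snhg17, Snhg5 and Snhg4 were -0.04, -0.04 and -0.13. Snhg3 shares 71.5% of its exon bases with Gm17300 on the other strand, which had log2FC -0.25. Gm11974, which GENCODE M21 names Snhg15, was at -0.36 ± 0.19 (edgeR adjusted p = 0.170, found by that name after its value was seen). Over all 12 measured transcripts of the list none was called, beside 8.61% of all genes tested. 1 had an adjusted p below 0.05, beside 33.3%. The median log2FC of the 12 was 0.01, and -0.09 without CKO replicate 1.

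Of 21 measured protein-coding snoRNA host genes none was called, beside 8.61% of all genes tested, and 8 had an adjusted p below 0.05, beside 33.3%. Their log2FC was between -0.35 and 0.12 with a median of -0.16, and 4 were above 0. Cct6a, a chaperonin subunit gene, is the member among them because the table marks it processed_transcript, and RefSeq lists it as protein-coding. It had 5388, 5978, 5845 and 5529 normalized counts in CKO replicates 1 to 4, against 5851, 5455, 5883 and 5946 in Control replicates 1 to 4 (log2FC -0.02 ± 0.05 (SE), edgeR adjusted p = 0.754). Psph, the phosphoserine phosphatase gene that starts 451 bases inside it, had 217 to 260.2 normalized counts in CKO, against 224 to 301 in Control (log2FC -0.13 ± 0.10, edgeR adjusted p = 0.376). The genotypes overlapped for both genes.

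Of the remaining abundant members, Tug1, a long noncoding RNA first named from the retina, had 3505, 3622, 3511 and 3504 normalized counts in CKO replicates 1 to 4, against 3288, 3255, 3588 and 3384 in Control replicates 1 to 4 (log2FC 0.07 ± 0.04 (SE), edgeR adjusted p = 0.265). Morc2a, which starts 482 bases inside it, had 2087 to 2492 normalized counts in CKO, against 1691 to 1992 in Control (log2FC 0.29 ± 0.08, edgeR adjusted p = 0.0115). Brip1os had 1022, 1136, 1126 and 1072 normalized counts in CKO replicates 1 to 4, against 1347, 1206, 1328 and 1321 in Control replicates 1 to 4 (log2FC -0.25 ± 0.05, edgeR adjusted p = 0.00339), with all CKO samples below all Control samples by a small difference. Its partner Med13, a Mediator subunit gene, had 3382 to 3789 normalized counts in CKO, against 2707 to 3960.4 in Control (log2FC 0.05 ± 0.10, edgeR adjusted p = 0.733). Firre, an X-linked nuclear RNA, had 1698, 1073, 1235 and 1285 normalized counts in CKO replicates 1 to 4, against 1149.9, 1334, 1053 and 985 in Control replicates 1 to 4 (log2FC 0.23 ± 0.14, edgeR adjusted p = 0.219), and CKO replicate 1 was again highest. Without it the value of Firre was 0.08 (edgeR adjusted p = 0.621). 1110038B12Rik had 602 to 775 normalized counts in CKO, against 621 to 724 in Control (log2FC 0.00 ± 0.09, edgeR adjusted p = 0.977). None of these 4 members was called.

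Kcnq1ot1, the antisense RNA of the imprinted Kcnq1 cluster, had 1486, 519, 813 and 642 normalized counts in CKO replicates 1 to 4, against 457, 629, 331 and 606 in Control replicates 1 to 4 (log2FC 0.78 ± 0.30 (SE), edgeR adjusted p = 0.0675). CKO replicate 1 was at 1486, the samples otherwise overlapped, and without it the value was 0.37 (edgeR adjusted p = 0.209). Without Control replicate 3, its lowest sample, it was 0.63 (edgeR adjusted p = 0.149). Its partner Kcnq1 had at most 7.66 normalized counts in any sample and was not tested. In the list of long imprinted or X inactivation center transcripts 5 passed the filter and 1, which is not a member, rose. In the list of lncRNAs known in the retina 7 passed, of which Tug1, Six3os1 and Vax2os are members, and none was called, with 1 at an adjusted p below 0.05. Among all genes tested 8.61% were called and 33.3% had an adjusted p below 0.05.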

How the data were processed

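Poly(A) RNA of 4 CKO and 4 Control E15.5 retina samples was sequenced as single-end reads without strand. Per the labels and methods, the authors aligned reads to mm10 with TopHat2 and deposited raw read counts per gene made with HTSeq. Its strand setting and gene annotation were not found in the sources read. The members and gene lists were chosen with earlier results of these data known. Counts were tested with edgeR 4.0.16 in R 4.3.3 (quasi-likelihood, TMM, genotype as the only term). A gene needed 20 normalized counts or more in 3 samples or more, and p-values were adjusted by Benjamini-Hochberg over all genes tested. Normalized counts had been scaled by size factors of the median-of-ratios kind. Ratios to a partner used log2 of normalized counts plus 1 and limma 3.58.1. Partners came from GENCODE M21 and start windows from RefSeq. Named members were those called, those past an adjusted p of 0.05 with a 2-fold change, the 10 with most reads and those of the fixed lists, and the text states where others were picked by their values. DESeq2 1.42.0, limma voom, other scalings and filters, sex as a term, the replicate block and each sample left out were the alternatives. Both tests were checked on simulated data with 200 changed genes. Total counts of 13143587 to 19099937 per sample set the precision.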

Additional observations from a re-analysis of the deposited data

Results flagged for a closer look

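In 162 groups of 4 samples, 16 held a sample far from the other 3 by Dixon's criterion, where chance flags about 1 in 20 groups. All values are normalized counts. Among members, CKO replicate 1 was high for Snhg14 (1883, against 1066 to 1188 in the other CKO samples) and for Gas5 (2358, against 1819 to 1867). CKO replicate 2 was high for Tug1 (3622, against 3504 to 3511) and CKO replicate 4 for E130317F20Rik (222, against 191 to 193). In Control, replicate 3 was high for D030046N08Rik (331, against 262 to 269), and replicate 2 was high for 1500004A13Rik (852, against 326 to 352) and for its partner 5830417I10Rik (141, against 58.2 to 65.8).

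Among partners, CKO replicate 1 was low for Parp9 (23.0, against 29.9 to 30.6) and CKO replicate 3 high for Fam69c (287, against 237 to 245). Control replicate 3 was low for Zeb2 (2497, against 3127 to 3164), Tenm3 (2538, against 3567 to 3607) and Tmtc2 (2048, against 2389 to 2430.3), and high for Cdca8 (2312, against 2157 to 2182) and Pcdh10 (374, against 306 to 315). Control replicate 1 was high for Ptbp1 (5664, against 4930 to 4963), and Control replicate 2 for Ptprn2 (576, against 504 to 511).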

How the results depend on the processing

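The count of members called, 9 (5 higher, 4 lower in CKO), was 15 (8 and 7) with DESeq2, 18 (12 higher) without the filter, and 39 (24 and 15) under the wider adjusted p of 0.05. The count of all genes called, 1196, was 2390, 2055 and 4619 in these. Over fits with 1 sample left out, the count of members called was 3 to 9, with a count of members higher in CKO of 2 to 5 and a count of members lower in CKO of 1 to 4, beside 686 to 1553 of all genes. The count of member pairs with a changed ratio, 20, was 9 to 19 there and 0 at an adjusted p below 0.001. The replicate numbers do not pair the samples (r of same-numbered deviations 0.14, -0.15, 0.06 and -0.12, and 2 CKO samples correlated best with their own number). With the replicate block 5 members (3 higher, 2 lower), 676 genes and 8 ratios were called. Of 1499 values of 91 named results under alternatives, 1358 kept direction and side of the cutoff, 78 lost and 34 gained the call, and 29 from 12 results changed sign. None of these 12 results was called. Their log2FC with 1 sample left out ranged as follows: Snhg17 -0.0415 to 0.24, Snhg5 -0.0386 to 0.12, 9930104L06Rik -0.0153 to 0.10, Gm2415 -0.23 to 0.0664, Snhg4 -0.13 to 0.13, Zeb2os -0.10 to 0.12, Gm15564 -0.21 to 0.26, Gm26801 -0.19 to 0.14, 1110038B12Rik -0.0702 to 0.0708, Zeb2 -0.00838 to 0.10, Med13 -0.0523 to 0.12, Six3 -0.0239 to 0.0456. Other settings gave Zeb2os -0.00198 and Six3 -0.0039 with sex as a term, Gm26801 0.0362 with limma voom, Gm26801 0.00879 and 1110038B12Rik -5.2e-05 with the replicate block, 1110038B12Rik -0.0226 and Six3 -0.0169 with library totals. The cause was not tested.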
